A study of Mus musculus with 2 samples.

Results

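The 9 genes described here encode carriers that move nutrients and hormones across the endothelium of brain vessels. They were taken by symbol from a table of 53465 mouse genes, and all 9 were found. The table compares endothelial cells isolated from mice treated with NeuroD1, a proneural transcription factor, with those from mice treated with GFP. There was 1 library per group, 2 libraries in all. The mice of both groups were of strain C57Bl/6 and of genotype tie2-cre, in which the Tie2 promoter drives Cre recombinase in endothelial cells and also in some blood cells. Cells of 3 mice were collected and 10000 cells were lysed, per the labels' protocols, so a library stands for pooled animals. The labels leave out age, vector, dose, time after treatment and whether the mice had a stroke.

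Brain endothelial cells are joined by tight junctions, so that nutrients reach the brain through carriers in the endothelial membranes. Slc2a1 (GLUT1) carries glucose, Slc19a3 thiamine, and Slc16a1 (MCT1) lactate, pyruvate and ketone bodies. Slco1c1 carries thyroxine, Slco1a4 a range of organic anions, and Mfsd2a lysophospholipids that hold docosahexaenoic acid. Slc7a5 (LAT1), Slc38a5 (SNAT5) and Slc7a1 (CAT1) carry large neutral, small neutral and cationic amino acids. Wnt/beta-catenin signalling in the endothelium keeps many such genes on.

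Levels are in FPKM, reads scaled by the exon length of the gene and by a divisor per library, as deposited. Whole reads could be recovered for all 9 carriers. Recovered reads summed to 2001473 in the NeuroD1 library and 2011198 in the GFP library. The deposited values imply divisors of 1950268 for NeuroD1 and 2208977 for GFP, which are not these sums, and how they were set is not stated. They put a factor of 1.13 on every ratio of NeuroD1 over GFP given below. Neurod1 itself stood at 182 FPKM in the NeuroD1 library and 0.664 FPKM in the GFP library, which fits the labels. Chemoreceptor genes, which endothelial cells are not known to use, give a level of background. The median of 1500 such genes was 1.41 FPKM in the NeuroD1 library and 1.54 FPKM in the GFP library, and their 95th percentile was 4.78 FPKM in the NeuroD1 library and 4.40 FPKM in the GFP library. The 14 pan-endothelial markers summed to 168 FPKM in the NeuroD1 library and 156 FPKM in the GFP library, and 13 of them lay above that percentile in each. Cldn5, a tight junction protein, stood at 31.5 FPKM in the NeuroD1 library and 33.9 FPKM in the GFP library. As each group is a single library, no difference can be set against replicate error, and p-values are not given. In bulk samples, fewer cells of a type and less RNA per cell cannot be told apart.

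Of the 9 carriers, 8 lay above the 95th percentile of chemoreceptor genes in each library. Slc2a1, Slc19a3, Slco1a4, Slco1c1 and Mfsd2a stood between 12.3 and 36.0 FPKM in the NeuroD1 library and between 10.3 and 33.4 FPKM in the GFP library, levels that at most 1.2% of chemoreceptor genes reached in NeuroD1 and 1.07% in GFP. Slc16a1 in the NeuroD1 library and Slc38a5 in the GFP library lay below that percentile. On the deposited scale, Slc19a3, Slco1a4 and Slco1c1 were higher in NeuroD1 beyond counting error, by 1.35-fold, 1.29-fold and 1.43-fold. Slc16a1 was lower, at 0.560 of its GFP level. The ratios of the other 5 had intervals that hold 1. With recovered reads as the library total, a scaling added after the data were seen, Slco1c1 (1.01 to 1.59) stayed above 1 and Slc16a1 (0.333 to 0.730) below, and all others held 1.

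**Figure D1:**
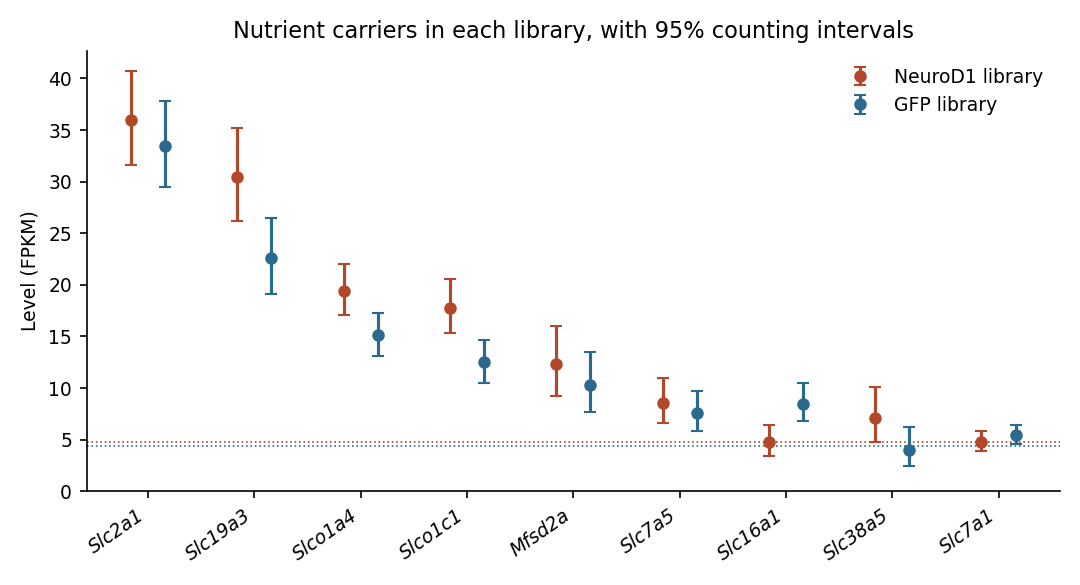
Level of each carrier in FPKM (y axis) in the NeuroD1 library (red, left point) and the GFP library (blue, right point), 1 library each, with exact Poisson 95% intervals of the recovered reads. Dotted lines mark the 95th percentile of chemoreceptor genes in each library, 4.78 FPKM for NeuroD1 and 4.40 FPKM for GFP, and intervals of the libraries lie apart for Slco1c1, with NeuroD1 above, and Slc16a1, with NeuroD1 below.

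Sequence upstream of the 4 carriers whose ratio left 1 is shown because 3 stood higher and 1 lower in NeuroD1. Each is the 250 bases before the gene's start from RefSeq (GRCm38.p6), read on the strand of the gene. Capitals mark CANNTG on either strand, the E-box letters that bHLH factors such as NeuroD1 are known to read. A match is a description of letters only.
Slco1c1, chr6:141524104-141524353, plus strand: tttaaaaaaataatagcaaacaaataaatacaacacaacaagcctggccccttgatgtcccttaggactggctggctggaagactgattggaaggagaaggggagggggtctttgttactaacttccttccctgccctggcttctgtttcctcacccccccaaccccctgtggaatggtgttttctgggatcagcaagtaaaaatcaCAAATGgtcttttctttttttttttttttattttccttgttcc
Slco1a4, chr6:141856221-141856470, minus strand: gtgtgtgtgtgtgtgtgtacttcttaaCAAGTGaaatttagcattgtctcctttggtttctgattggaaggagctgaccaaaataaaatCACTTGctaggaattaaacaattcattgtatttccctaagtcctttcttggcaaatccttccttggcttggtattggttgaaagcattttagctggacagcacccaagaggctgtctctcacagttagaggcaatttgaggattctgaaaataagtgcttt
Slc19a3, chr1:83038449-83038698, minus strand: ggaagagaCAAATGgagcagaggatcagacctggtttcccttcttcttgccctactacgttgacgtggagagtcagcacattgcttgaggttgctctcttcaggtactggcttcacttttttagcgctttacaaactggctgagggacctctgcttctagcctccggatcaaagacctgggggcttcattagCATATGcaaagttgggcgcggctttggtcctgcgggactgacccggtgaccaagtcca
Slc16a1, chr3:104638414-104638663, plus strand: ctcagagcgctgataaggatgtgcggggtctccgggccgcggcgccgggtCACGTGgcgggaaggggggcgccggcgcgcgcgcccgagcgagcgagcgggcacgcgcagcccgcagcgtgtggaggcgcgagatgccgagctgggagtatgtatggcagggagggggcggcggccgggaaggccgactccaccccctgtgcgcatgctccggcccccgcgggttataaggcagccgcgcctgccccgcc
The windows differ in base composition. That of Slc16a1 was 76.4% G or C and held 37 CpG, against 42.8% and 0 CpG for Slco1c1, 39.2% and 0 CpG for Slco1a4, and 52.8% and 8 CpG for Slc19a3. The median of 32851 promoter windows was 52.4% and 6 CpG. RefSeq windows were matched for 8 of the 9 carriers, with 2 starts for Slc7a1, and Slc7a5 is named only. CANNTG occurred in 66.2% of all windows. The E-box variants CAGATG and CAGCTG, which NeuroD1 is known to bind and which are both forms of CANNTG, were found in 14.4% and 13.0% of all windows. CAGATG was in 0 of the 9 carrier windows and CAGCTG in 1, that of an Slc7a1 start.

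The thyroid hormone and organic anion carriers were higher in NeuroD1 on the deposited scale. Slco1c1 (ENSMUSG00000030235, chr6:141524368-141570177, plus strand, GRCm38) stood at 17.8 FPKM in the NeuroD1 library and 12.5 FPKM in the GFP library, from 180 reads in NeuroD1 and 143 in GFP. Its ratio was 1.43, with an exact Clopper-Pearson 95% interval of 1.14 to 1.79. Reads may share a source molecule, so this interval and those below cover counting error only. Slco1a4 (ENSMUSG00000030237, chr6:141805440-141856199, minus strand) stood at 19.4 FPKM in the NeuroD1 library and 15.1 FPKM in the GFP library, from 243 reads in NeuroD1 and 214 in GFP, a ratio of 1.29 (interval 1.07 to 1.55). Both genes lie in 1 cluster on chromosome 6, with 235 kb between them. The ratio of Slco1c1 to Slco1a4 was 1.11-fold higher in NeuroD1, with an interval of 0.824 to 1.49 that holds 1. With NeuroD1 rescaled to the summed FPKM of GFP, both Slco1c1 (0.966 to 1.52) and Slco1a4 (0.905 to 1.32) held 1. Slco1a4 also held it with recovered reads as the total (0.946 to 1.38), with the pan-endothelial sum set equal, against genes of similar level and with widened intervals, whose values follow.

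Slco1a4 has close relatives in the same cluster, and no source used here states how reads that fit several genes were counted. Its relatives Slco1a1, Slco1a5 and Slco1a6 stood at 2.62, 4.0 and 4.04 FPKM in the NeuroD1 library and at 3.95, 3.28 and 3.33 FPKM in the GFP library. All 3 lay below the 95th percentile of chemoreceptor genes in both libraries, so the level of Slco1a4 stood apart from theirs.

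The thiamine carrier was higher in NeuroD1 on the deposited scale, and the glucose carrier was not separated beyond counting error. Slc19a3 (ENSMUSG00000038496, chr1:83012523-83038448, minus strand) stood at 30.4 FPKM in the NeuroD1 library and 22.6 FPKM in the GFP library, from 182 reads in NeuroD1 and 153 in GFP, a ratio of 1.35 (interval 1.08 to 1.68). Its interval held 1 with the summed FPKM set equal (0.918 to 1.43), with recovered reads as the total (0.959 to 1.49), against genes of similar level (0.913 to 1.42) and when widened (0.986 to 1.84). Slc2a1 (ENSMUSG00000028645, chr4:119108711-119137983, plus strand) had the highest level of the 9 in both libraries, 36.0 FPKM in NeuroD1 and 33.4 FPKM in GFP. Its reads numbered 246 in NeuroD1 and 259 in GFP, for a ratio of 1.08 (interval 0.900 to 1.29). Exons of Slc2a1 share 105 bases, 2.99% of their length, with the opposite-strand gene Gm12868, listed at 1.23 FPKM in the NeuroD1 library and 16.3 FPKM in the GFP library. No source used here states whether counting used strand, so reads within those bases cannot be told apart. No other carrier shares exon bases with another annotated gene in GENCODE M21.

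Mfsd2a (ENSMUSG00000028655, chr4:122946850-122961188, minus strand), which also restrains transcytosis in brain endothelium, stood at 12.3 FPKM in the NeuroD1 library and 10.3 FPKM in the GFP library. It had 54 reads in NeuroD1 and 51 in GFP, a ratio of 1.20 and an interval of 0.803 to 1.79. This interval holds both 1 and the ratio of Slc19a3.

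Slc16a1 (ENSMUSG00000032902, chr3:104638668-104658462, plus strand) went the other way. It stood at 4.75 FPKM in the NeuroD1 library and 8.49 FPKM in the GFP library, from 41 reads in NeuroD1 and 83 in GFP, a ratio of 0.560 (interval 0.375 to 0.823). In the NeuroD1 library 5.07% of chemoreceptor genes were as high or higher, and in the GFP library 1.33% were. A gene of its length at the chemoreceptor median would hold 12.1 reads in the NeuroD1 library and 15.1 reads in the GFP library. Basigin (Bsg), the chaperone that brings Slc16a1 to the cell surface, stood at 114 FPKM in the NeuroD1 library and 86.8 FPKM in the GFP library, a ratio of 1.31 (interval 1.14 to 1.52). On the deposited scale, carrier and chaperone differed in opposite directions. The ratio of Bsg was not read under the other scalings or against genes of similar level. Embigin (Emb), another chaperone of the family, was at 2.82 FPKM in NeuroD1 and 2.03 FPKM in GFP, and is named outside the naming rule.

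The amino acid carriers had no ratio interval apart from 1. Slc7a5 (ENSMUSG00000040010, chr8:121881150-121907694, minus strand) stood at 8.57 FPKM in the NeuroD1 library and 7.57 FPKM in the GFP library, from 62 reads in each, a ratio of 1.13 (interval 0.784 to 1.64). Its heavy chain Slc3a2, with which it forms the working carrier, stood at 12.6 FPKM in NeuroD1 and 12.3 FPKM in GFP (ratio 1.03, interval 0.759 to 1.39). For both chains the difference was not detectable at this depth.

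Slc38a5 (ENSMUSG00000031170, chrX:8271133-8280179, plus strand) had the highest ratio and the fewest reads. It stood at 7.09 FPKM in the NeuroD1 library and 4.04 FPKM in the GFP library, from 31 reads in NeuroD1 and 20 in GFP, a ratio of 1.76 (interval 0.969 to 3.25). In the GFP library 6.67% of chemoreceptor genes were as high or higher, and in the NeuroD1 library 2.47% were. Slc7a1 (ENSMUSG00000041313, chr5:148327410-148399904, minus strand) stood at 4.80 FPKM in the NeuroD1 library and 5.42 FPKM in the GFP library, from 108 reads in NeuroD1 and 138 in GFP, a ratio of 0.886 (interval 0.683 to 1.15). Its NeuroD1 level was just above the 95th percentile of chemoreceptor genes.

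**Figure D2:**
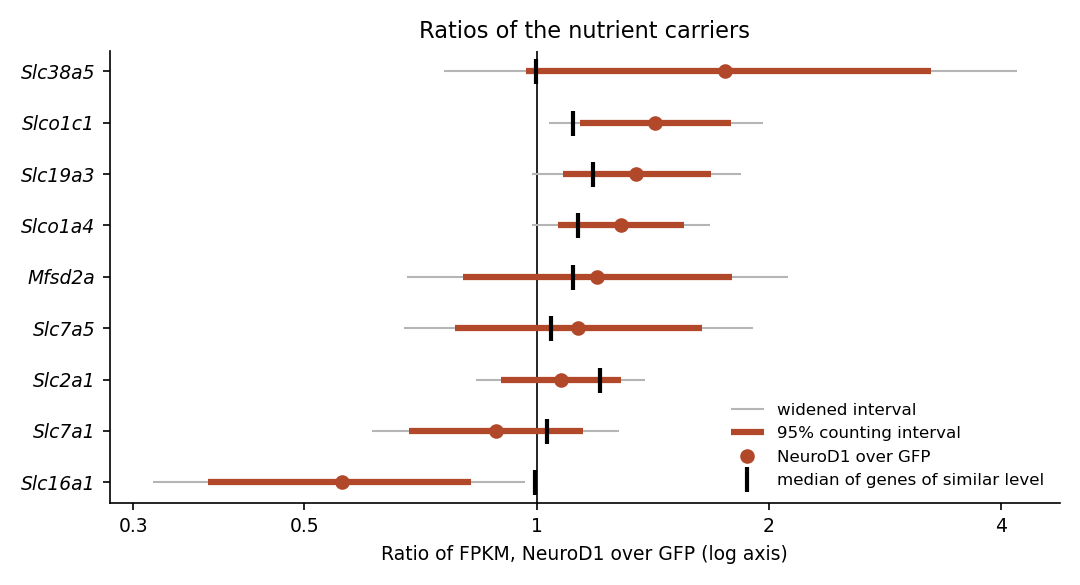
Ratio of FPKM in NeuroD1 over GFP (log x axis) for each carrier, with 1 library per group. Red bars are exact 95% counting intervals, grey lines the same intervals widened to the variance seen between the libraries, and black ticks the median ratio of 200 protein-coding genes of similar level. Slco1c1 at 1.43 and Slc16a1 at 0.560 keep their grey lines on 1 side of 1.

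Read against all genes, none of the 9 carriers passed a log2(FPKM + 1) difference of 1 in either direction, on a scale that understates changes of low genes. All 9 had at least 5 FPKM in a library. Past that minimum, 12.9% of 14679 genes were higher by this rule and 15.6% lower, and of 6408 protein-coding genes 3.25% were higher and 3.31% lower. Ratio intervals lay above 1 for 3 of the 9 carriers and below 1 for 1. Among 14792 protein-coding genes with at least 20 reads, 5.93% lay above 1 and 6.22% below, 12.1% together. Among 8968 such genes within the carriers' range of reads these shares were 6.13%, 6.51% and 12.6%. Among 3157 protein-coding genes within the carriers' range of reads and of mean FPKM, 9.53% lay above and 5.64% below. In those genes the libraries varied by 2.0 times the variance that counting gives. With intervals widened to that variance, a step added after the data were seen, 1 carrier stayed above 1, Slco1c1 (1.04 to 1.96), and 1 below, Slc16a1 (0.318 to 0.965). Slc19a3 (0.986 to 1.84) and Slco1a4 (0.986 to 1.68) then held 1. The share of all genes apart from 1 is not given for widened intervals or other scalings. Counts of carriers under those settings therefore have no background beside them.

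The differences also have to be read against level, because abundant genes as a whole were higher in NeuroD1 on the deposited scale. Of the 9 carriers, 7 had a log2(FPKM + 1) difference above 0, or 5 with NeuroD1 rescaled to the summed FPKM of GFP and 6 with recovered reads as the total. Among the 3157 protein-coding genes within the carriers' range of reads and level, 55.3% were above 0 on the deposited scale. That share rose with level. Among the 200 protein-coding genes nearest in level it was 88% for Slc2a1, 82.5% for Slc19a3, 71% for Slco1a4 and 69% for Slco1c1. It was 66.5% for Mfsd2a, 58.5% for Slc7a5, 49% for Slc16a1, 50% for Slc38a5 and 55.5% for Slc7a1. The 55.3% is therefore a low reference for the more abundant carriers. The carriers' median difference was 0.24, or 0.02 with the summed FPKM set equal, which lowers every gene by up to 0.24, and 0.08 with recovered reads as the total, which lowers every gene by up to 0.17. Leaving genes above 1000 FPKM out of the sums gave 0.245, and setting the median ratio of protein-coding genes to 1 gave 0.186. Over 20697 protein-coding genes with at least 1 FPKM in a library the median was -0.02 and 48.4% were above 0. The 200 protein-coding genes nearest in level to Slc2a1 had a median difference of 0.27, against 0.10 for Slc2a1 itself. So few genes are this abundant that these 200 span 20.8 to 7389 FPKM. For Slc19a3 the neighbours' median was 0.24 and its own difference 0.41, for Slco1a4 0.17 and 0.34, and for Slco1c1 0.15 and 0.48. At the levels of Slc16a1 and Slc38a5 the neighbours' median was -0.01 and -0.0025, against differences of -0.72 and 0.68. With the neighbours' median ratio set to 1, the interval of Slco1c1 (1.02 to 1.6) lay above 1 and that of Slc16a1 (0.377 to 0.827) below. Slc19a3 (0.913 to 1.42) and Slco1a4 (0.941 to 1.37) then held 1. After subtraction of the neighbours' median, 6 of 9 carriers remained above 0, with a median of 0.10.

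**Figure D3:**
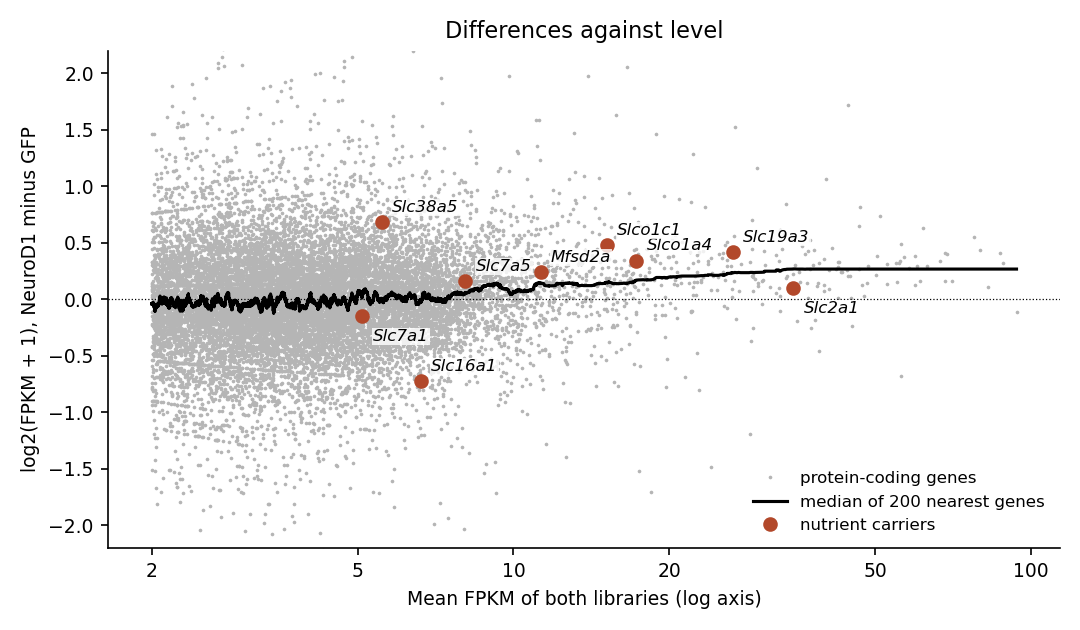
Difference in log2(FPKM + 1), NeuroD1 minus GFP (y axis), against mean FPKM of the libraries (log x axis) for protein-coding genes between 2 and 100 FPKM (grey) and the 9 carriers (red), with the median of the 200 genes nearest in level (black line). The line climbs with level, and Slc2a1 lies under it at 0.10 whereas Slco1c1 lies over it at 0.48.

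Ratios between carriers within a library need no scaling between libraries. Slc19a3 stood at 6.41 times the level of Slc16a1 in the NeuroD1 library and 2.66 times in the GFP library, a 2.41-fold change with an exact conditional interval of 1.53 to 3.81. Of the 8 pairs of Slc16a1 with another carrier, 7 had an interval apart from 1, and the pair with Slc7a1 did not (0.987 to 2.56). Of the 28 pairs without Slc16a1, 4 had one. These 4 were Slc7a1 against Slc19a3, Slco1a4, Slco1c1 and Slc38a5, with Slc7a1 relatively lower in NeuroD1 by 1.52-fold, 1.45-fold, 1.61-fold and 1.98-fold. Against Slc2a1, which was chosen as the most abundant carrier, Slc16a1 alone had an interval apart from 1. It stood at 0.132 of the Slc2a1 level in the NeuroD1 library and 0.254 in the GFP library. For Slco1c1 the same values were 0.495 in NeuroD1 and 0.373 in GFP (1.33-fold, interval 0.991 to 1.77). These pair intervals cover counting error only. They were neither widened to the variance between the libraries nor set against genes of similar level. The median ratio of such genes was 1.18 for Slc19a3, 1.13 for Slco1a4, 1.12 for Slco1c1, 0.998 for Slc38a5, 0.995 for Slc16a1 and 1.03 for Slc7a1. No share over other pairs of genes is given beside the counts of pairs. The pairs share genes and were read after the values were seen, so they describe these libraries only.

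The order of levels was nearly the same in both libraries. In the NeuroD1 library it ran Slc2a1, Slc19a3, Slco1a4, Slco1c1, Mfsd2a, Slc7a5, Slc38a5, Slc7a1, Slc16a1. Neighbours were separated beyond counting error between Slc19a3 and Slco1a4 (1.57-fold, interval 1.29 to 1.91) and between Slco1c1 and Mfsd2a (1.45-fold, interval 1.06 to 2.0), and the other 6 neighbouring pairs were not. In the GFP library the first 5 places were the same, followed by Slc16a1, Slc7a5, Slc7a1 and Slc38a5. There the separated neighbours were Slc2a1 and Slc19a3, Slc19a3 and Slco1a4, and Slc7a5 and Slc7a1. Slc16a1 thus ranked 9 in the NeuroD1 library and 6 in the GFP library. The order depends on scaling by exon length, while DRUG-seq primers label the 3' end of transcripts. By reads alone Slc7a1, whose exons span 11530 bases, ranked 5 in both libraries, against 8 by FPKM.

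Among their own families, the 5 most abundant carriers were higher by FPKM than their relatives outside the 9 in both libraries. Slc2a1 ranked 1 of 12 Slc2a genes, with the other 11 between 0.575 and 7.42 FPKM in the NeuroD1 library and between 1.41 and 6.77 FPKM in the GFP library. Slc19a3 ranked 1 of 3, with relatives at 3.21 and 3.86 FPKM in NeuroD1 and at 3.30 and 3.41 FPKM in GFP. Slco1a4 and Slco1c1 ranked 1 and 2 of 14 Slco genes, whose other 12 members reached at most 4.05 FPKM in NeuroD1 and 4.79 FPKM in GFP. Mfsd2b, the relative of Mfsd2a, stood at 3.39 FPKM in NeuroD1 and 3.52 FPKM in GFP. By reads these 2 were closer, with 34 in NeuroD1 and 40 in GFP for Mfsd2b against 54 and 51 for Mfsd2a. The exons of Mfsd2b span 5148 bases and those of Mfsd2a 2250.

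By FPKM, the other carriers lay among their relatives, apart from Slc7a5 in NeuroD1, which led its family narrowly. These ranks depend on scaling by exon length and differ by reads alone. Slc7a1 (108 reads in NeuroD1, 138 in GFP) and Slc7a11 (69 and 81) then stood above Slc7a5 (62 in each). Slc16a1 had 41 reads in NeuroD1 and 83 in GFP, against 40 and 51 for Slc16a13, which leads by FPKM. Slc16a1 ranked 4 of 14 Slc16a genes in the NeuroD1 library and 2 in the GFP library, where Slc16a13 was higher, at 7.89 FPKM in NeuroD1 and 8.88 FPKM in GFP. Slc7a5 ranked 1 of 15 Slc7a genes in NeuroD1 and 2 in GFP, next to Slc7a7 at 7.12 FPKM in NeuroD1 and 7.92 FPKM in GFP. Slc7a1 ranked 5 in both. Slc38a5 ranked 2 of 11 Slc38a genes in NeuroD1 and 6 in GFP, and Slc38a2 led that family at 8.65 FPKM in NeuroD1 and 10.7 FPKM in GFP. Relatives outside the naming rule were named after their values were seen.

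**Figure D4:**
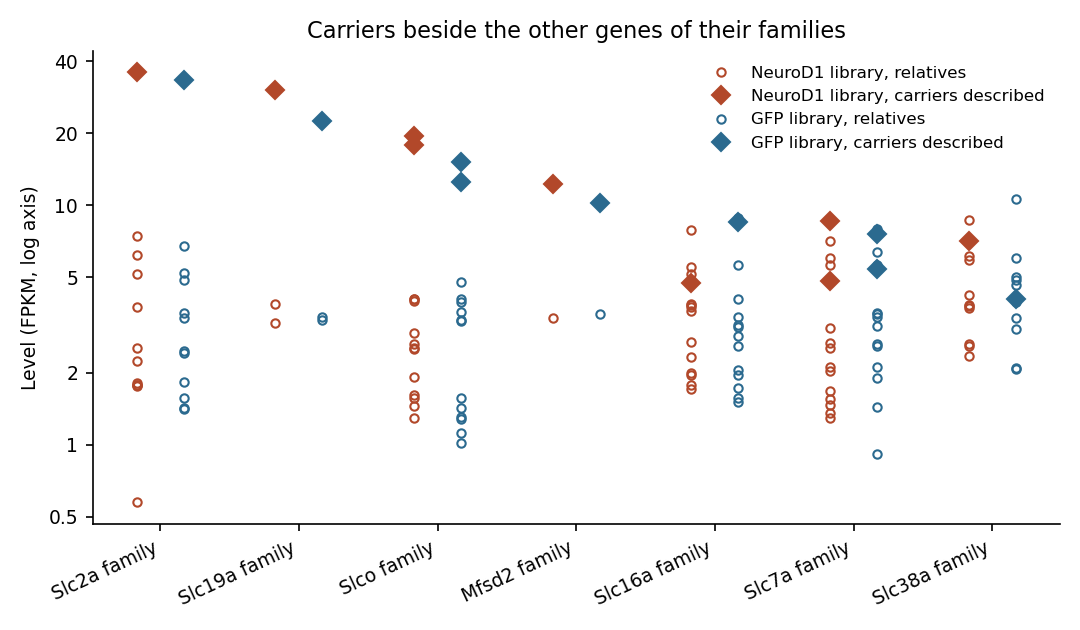
Level in FPKM (log y axis) of the 9 carriers (filled diamonds) and of the other genes of their families (open circles) in the NeuroD1 library (red, left) and the GFP library (blue, right). Slc2a1, Slc19a3, Slco1a4, Slco1c1 and Mfsd2a lie above all relatives, whereas Slc16a1, Slc7a1 and Slc38a5 lie among theirs and Slc7a5 lies beside Slc7a7.

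Among all 377 solute carrier genes, Slc2a1, Slc19a3, Slco1a4 and Slco1c1 ranked 3, 4, 6 and 8 in each library. Above them stood Slc22a20, at 159 FPKM in NeuroD1 and 129 FPKM in GFP, and the mitochondrial carrier Slc25a29, at 58.4 FPKM in NeuroD1 and 46.9 FPKM in GFP. Between Slc19a3 and Slco1a4 stood Slc6a7, at 19.8 FPKM in NeuroD1 and 19.5 FPKM in GFP. Between Slco1a4 and Slco1c1 stood Slc35d3, at 18.9 FPKM in NeuroD1 and 12.6 FPKM in GFP. A high rank among solute carriers was therefore not limited to the 9. Mfsd2a ranked 14 in NeuroD1 and 15 in GFP. Slc16a1 ranked 102 in NeuroD1 and 23 in GFP, and Slc38a5 ranked 39 in NeuroD1 and 137 in GFP, the widest moves among the 9. Each lay below the 95th percentile of chemoreceptor genes in 1 library. The rank of Slc38a5 rests on 31 reads in NeuroD1 and 20 in GFP, and its ratio interval holds 1.

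Of 67 other carriers and lipid uptake genes, 29 had a difference above 0, with a median of -0.06, and 0 passed a difference of 1 in either direction at 5 FPKM or more. Of the 60 with recovered reads, 1 interval lay above 1 and 7 below on the deposited scale. Among protein-coding genes with at least 20 reads these shares were 5.93% above and 6.22% below. Intervals of the 60 were not read under other scalings or against genes of similar level. The 1 above was Slc6a6, the taurine carrier, at 14.2 FPKM in NeuroD1 and 10.4 FPKM in GFP (ratio 1.36, interval 1.12 to 1.65). Among the 7 below was Slc1a5, a neutral amino acid carrier, at 3.69 FPKM in NeuroD1 and 6.51 FPKM in GFP (ratio 0.566, interval 0.353 to 0.892). The median of these 67 genes was 3.69 FPKM in NeuroD1 and 3.49 FPKM in GFP, near background, against 12.3 FPKM in NeuroD1 and 10.3 FPKM in GFP for the 9.

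By kind of cargo, the 10 other thyroid hormone and organic anion carriers had a median of 0.22, with 7 above 0. Slc22a8, an organic anion carrier, stood at 6.19 FPKM in NeuroD1 and 4.17 FPKM in GFP, and has no interval because its whole reads could not be recovered. The 16 other vitamin, nucleoside and choline carriers had a median of -0.18, with 3 above 0. Among them Flvcr2, a choline carrier of brain endothelium, stood at 5.85 FPKM in NeuroD1 and 7.49 FPKM in GFP (interval of the ratio 0.509 to 1.19). The median was -0.05 for 18 other amino acid carriers, 0.06 for 10 other hexose and monocarboxylate carriers and -0.01 for 13 lipid uptake genes. None of these lists had more than 2 members with an interval apart from 1 in either direction, except lipid uptake with 4 below.

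The Wnt/beta-catenin axis, background to carrier expression, had a median of -0.02 over 22 genes, with 11 above 0. Its receptor component Adgra2 stood at 15.6 FPKM in NeuroD1 and 15.5 FPKM in GFP (ratio 1.01, interval 0.817 to 1.24). Of 20 members with recovered reads, Sox18, an endothelial transcription factor, alone had an interval apart from 1, at 11.7 FPKM in NeuroD1 and 6.43 FPKM in GFP (ratio 1.82, interval 1.05 to 3.21). Pan-endothelial markers had a median of 0.15, with 9 of 14 above 0. When their sum was set equal in both libraries, Slc2a1 differed by 0.01 and Slco1c1 (interval of the ratio 1.06 to 1.67) and Slc19a3 (1.01 to 1.57) stayed above 1, while Slco1a4 held it (0.995 to 1.45).

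**Figure D5:**
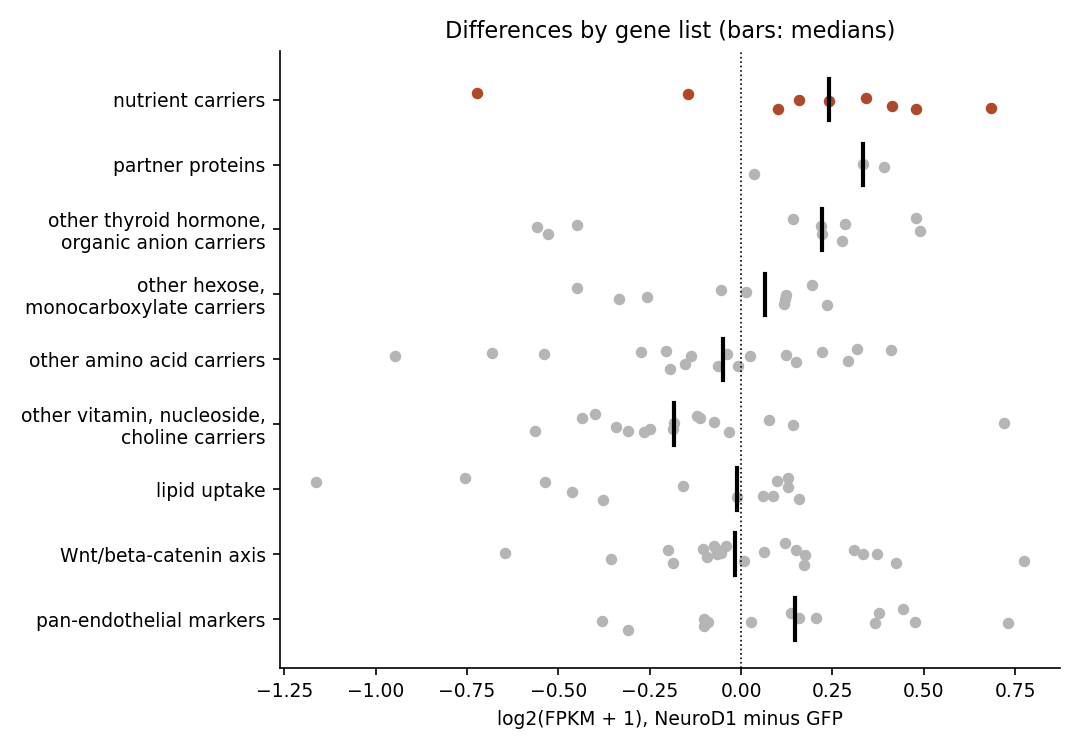
Differences in log2(FPKM + 1), NeuroD1 minus GFP (x axis), of single genes (points) with at least 1 FPKM in a library, by list, with medians as black bars. The 9 carriers (red) have a median of 0.24, other vitamin, nucleoside and choline carriers -0.18 and pan-endothelial markers 0.15.

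Some of the carriers are also used by other cells. Astrocytes express Slco1c1 and Slc16a1. Their 9 markers summed to 26.0 FPKM in NeuroD1 and 26.4 FPKM in GFP, with 5 of 9 above 0 in difference, and 0 of 9 in NeuroD1 and 1 of 9 in GFP lay above the 95th percentile of chemoreceptor genes. Erythroid precursors express Slc2a1, Slc16a1, Slc38a5 and Slc7a1. Their 9 markers summed to 41.0 FPKM in NeuroD1 and 52.4 FPKM in GFP, with 4 of 9 above 0. Among them Hbb-bs, a haemoglobin chain, alone had an interval apart from 1. It stood at 4.01 FPKM in NeuroD1 and 13.6 FPKM in GFP (ratio 0.295, interval 0.0984 to 0.746). Its reads numbered 6 in NeuroD1 and 23 in GFP. Hba-a1, another haemoglobin chain, went the other way, at 10.7 FPKM in NeuroD1 and 6.69 FPKM in GFP. The interval of its ratio (0.722 to 3.68) holds 1. The 7 choroid plexus and ependymal markers summed to 33.3 FPKM in NeuroD1 and 33.0 FPKM in GFP, with 4 of 7 above 0. Of these, Ttr, which carries thyroxine in cerebrospinal fluid, stood at 9.67 FPKM in NeuroD1 and 4.09 FPKM in GFP, and Folr1, a folate receptor, at 7.81 FPKM in NeuroD1 and 11.6 FPKM in GFP. Mural cell markers summed to 30.9 FPKM in NeuroD1 and 35.2 FPKM in GFP, and microglial markers to 24.9 FPKM in NeuroD1 and 34.0 FPKM in GFP. Of mural markers with at least 1 FPKM in a library, 2 of 9 were above 0. Of microglial markers 1 of 10 was, with a median of -0.30. Neuronal markers summed to 63.4 FPKM in NeuroD1 and 52.6 FPKM in GFP, and those of the oligodendrocyte lineage to 32.8 FPKM in NeuroD1 and 32.9 FPKM in GFP. Rbfox3 alone held 31.0 FPKM of the neuronal sum in NeuroD1 and 26.8 FPKM in GFP. Of neuronal markers 7 of 10 were above 0, with a median of 0.35, higher than that of the carriers. For the oligodendrocyte lineage 5 of 9 were above 0. No marker of these lists was at 0 in either library. Their part in the carriers' differences was not tested.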

How the data were processed

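RNA of isolated endothelial cells was profiled in 1 NeuroD1 and 1 GFP library with DRUG-seq primers, per the labels' protocols. The authors deposited FPKM values per Ensembl gene. Build GRCm38, DESeq (version not given), featureCounts 1.6.3 and Bowtie2 2.3.5.1 are listed in the submitters' processing notes. Strand, multi-mapping reads and molecular identifiers are not given in the sources used here.

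FPKM times merged exon length (GENCODE M21) fell on whole multiples of 453 in the GFP and 513 in the NeuroD1 library. Reads were whole within 0.02 for 51162 of 53465 genes (95.7%). Ratios have exact Clopper-Pearson 95% intervals, single levels exact Poisson intervals. Read recovery and ratio intervals were tested on simulated Poisson reads. Such reads vary by counting error only, so the coverage of the intervals in these libraries was not tested. The deposited scaling between libraries was kept. Its divisors are not the recovered read totals.

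List members counted at 1 FPKM, and fold calls used 5 FPKM and a log2(FPKM + 1) difference of 1. The carriers and all lists were chosen with earlier results of these data known. Named genes are the 9 carriers, Neurod1, up to 4 most abundant and 2 most different genes past 5 FPKM per carrier, partner or Wnt list, and the 3 most abundant cell type markers, and not all are printed. Promoter windows came from RefSeq, build GRCm38.p6. Alternatives were pseudocounts of 0.1 and 5, other filters, other scalings (recovered reads as the total among them), chemoreceptor background subtracted and 99% intervals. Tools were scipy 1.17.1, numpy 2.4.6, pandas 2.3.3, matplotlib 3.10.9 and Python 3.11.15.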

Additional observations from a re-analysis of the deposited data

How the results depend on the processing

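No paired analysis was possible because NeuroD1 and GFP are single libraries, so leaving out a replicate was not possible either. With NeuroD1 rescaled to the summed FPKM of GFP, the carriers' median difference was 0.024 in place of 0.24 and that of the other carriers -0.22 in place of -0.06. The number of carriers with an interval above 1 was then 0 in place of 3, and below 1 it was 2 in place of 1, Slc7a1 (0.580 to 0.975) beside Slc16a1. That scaling multiplies every NeuroD1 value by 0.849, so all genes move alike, and Slc2a1 (-0.13) and Slc7a5 (-0.05) changed sign. Leaving the 19 genes above 1000 FPKM out of the sums gave a factor of 1.003. The carriers' median was then 0.245, with 3 intervals above 1 and 1 below. Setting the median ratio of protein-coding genes to 1 gave a median of 0.186, again with 3 above and 1 below. With recovered reads as the library total, added after seeing the data, the medians were 0.082 for the carriers and -0.18 for the other carriers, the count above 1 was 1 (Slco1c1), and Slc2a1 (-0.07) changed sign. With the median of genes of similar level subtracted, the carriers' median was 0.10. With the median ratio of those genes set to 1, and with intervals widened to the variance between the libraries, both added after seeing the data, the count above 1 was 1, and the count below stayed at 1. For the changed scalings and widened intervals, no share of all genes is given beside these counts. The counts past a log2 difference of 1 were 0 in both directions under all settings run. Slc16a1 differed by -0.92 to -0.47, Slco1c1 by 0.26 to 0.54, Slc19a3 by 0.19 to 0.45 and Slco1a4 by 0.12 to 0.39 over 8 settings each. All 72 values of single carriers under these settings differed from the main value by less than the wider arm of its counting interval. Reads limit Slc38a5 and Mfsd2a most, with 51 and 105 over both libraries, then Slc7a5 and Slc16a1, with 124 each.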
